A study of Caenorhabditis elegans with 3 samples.

Results

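The genes of the large ribosomal subunit proteins were examined for binding of Y5F2A.4::GFP, a tagged C. elegans protein with a zinc finger domain according to its RefSeq product name. The set was every nuclear protein-coding gene whose symbol begins with rpl- or rla-, and held 50 of 19973 genes. The promoter of each gene was taken as the stretch from 1000 bp upstream to 200 bp downstream of its annotated 5' end. A gene was called bound when the summit of a peak in the list thresholded by the irreproducible discovery rate lay in that promoter. This rate scores how reproducibly regions rank across replicates, but the ranks of a kept peak could still differ widely, as given below for rpl-24.2 and rpl-27. A gene was called a candidate when only the longer list of combined candidate regions, which holds peaks and background, had a summit there. Within that rule the gene symbol alone decides which genes belong, although the gene family itself was picked with earlier results of these data known. RefSeq names a ribosomal protein as the product of 48 of the 50 genes. The exceptions were rpl-24.2, annotated as a putative ribosome biogenesis protein, and rpl-42, annotated as a protein with a NAM-associated domain.

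Chromatin came from whole L4 larvae of mixed sex, aged 48 hours and synchronised by L1 starvation after bleaching. All animals belonged to 1 transgenic strain, OP682, which carries unc-119(tm4063) and the integrated array wgIs682. This array holds Y5F2A.4::TY1::EGFP::3xFLAG together with a rescuing unc-119(+), and the fusion protein was precipitated through GFP from DNA sonicated to between 200 and 800 bp. There were 3 libraries, 2 of them technical libraries of replicate 1, so the study had 2 biological replicates of 1 group and no other condition. No contrast between conditions exists, no p-value is given, and each result is a description of these lists. The thresholded list held 620 nuclear peaks whose signal, the peak caller's own score and without a unit in the deposited notes, ran from 100.5 to 717.5 with a median of 131.3. The candidate lists held 28426 nuclear regions for both replicates together, 29984 for replicate 1 and 23398 for replicate 2. Whole animals were used, so cells of different tissues cannot be told apart. Read depth is unknown from these lists, and scores were compared only within a list.

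The ribosome reads messenger RNA with its small subunit and joins amino acids with its large subunit. The large subunit is built around ribosomal RNA that forms the catalytic centre, while its proteins brace this RNA, line the exit tunnel and form the stalks that handle tRNA and translation factors. Subunit proteins are needed in near equal amounts, and their genes are among the most strongly transcribed in growing cells. In C. elegans the messages of many such genes receive a spliced leader, so an annotated 5' end can lie downstream of the true transcription start. Introns of ribosomal protein genes often carry snoRNAs, the guide RNAs that direct the chemical modification of ribosomal RNA.

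The summits in the promoters of rpl-3, rpl-20, rpl-15 and rpl-35 were the strongest of the set, and the DNA under them shared short words. The sequences of 6 bound promoters are given here, since the values below turn on them. Each runs 5' to 3' on the strand of the gene, from the ce11 assembly as held by RefSeq, with 100 bases before the summit base and up to 100 after it, kept outside annotated exons. Capitals mark the words AAGTGTA (word 1 in the map of words), then AACACGC (word 2), and finally ACACTCG (word 3), on either strand. The stretches are chrIII:3867475-3867675 on the plus strand for rpl-3, chrIV:4749979-4750179 on the minus strand for rpl-20, chrIV:654817-655017 on the minus strand for rpl-15, chrIII:7854584-7854784 on the plus strand for rpl-35, chrIV:13240652-13240784 on the minus strand for rpl-12 and chrIV:4390591-4390780 on the minus strand for rpl-7A.
rpl-3: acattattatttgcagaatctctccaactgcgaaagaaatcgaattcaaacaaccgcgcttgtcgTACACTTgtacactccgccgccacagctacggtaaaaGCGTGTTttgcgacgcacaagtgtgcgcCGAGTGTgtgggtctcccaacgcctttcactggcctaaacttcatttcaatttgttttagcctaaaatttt
rpl-20: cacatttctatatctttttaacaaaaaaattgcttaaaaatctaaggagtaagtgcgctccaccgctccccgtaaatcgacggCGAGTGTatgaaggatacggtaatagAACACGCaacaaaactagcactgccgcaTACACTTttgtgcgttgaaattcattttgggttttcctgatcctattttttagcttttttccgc
rpl-15: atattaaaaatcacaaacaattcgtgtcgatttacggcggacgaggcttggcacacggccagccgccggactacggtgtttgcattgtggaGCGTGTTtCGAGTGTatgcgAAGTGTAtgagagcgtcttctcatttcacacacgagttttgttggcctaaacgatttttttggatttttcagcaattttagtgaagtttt
rpl-35: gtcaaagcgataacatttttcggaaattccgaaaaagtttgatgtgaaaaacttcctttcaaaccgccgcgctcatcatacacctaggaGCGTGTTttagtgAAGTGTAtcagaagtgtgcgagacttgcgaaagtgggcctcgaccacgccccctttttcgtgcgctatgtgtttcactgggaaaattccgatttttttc
rpl-12: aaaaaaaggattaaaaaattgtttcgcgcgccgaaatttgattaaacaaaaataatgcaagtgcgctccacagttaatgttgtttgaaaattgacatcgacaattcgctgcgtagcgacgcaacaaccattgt
rpl-7A: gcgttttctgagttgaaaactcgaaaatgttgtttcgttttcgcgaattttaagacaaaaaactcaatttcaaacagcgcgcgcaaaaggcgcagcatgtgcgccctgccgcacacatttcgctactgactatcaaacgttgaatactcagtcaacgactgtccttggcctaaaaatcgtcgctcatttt

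A thresholded summit lay in the promoter of 8 of the 50 genes (16%), where 1.46% of all nuclear protein-coding genes were bound. These were rpl-3, rpl-7A, rpl-12, rpl-15, rpl-20, rpl-24.2, rpl-27 and rpl-35. A further 26 genes (52%) had a candidate summit only, beside 28.9% of all genes. The remaining 16 (32%) had no summit in the combined list, beside 69.6% of all genes. The replicates were also read alone. Replicate 1 had a candidate summit in the promoters of 33 of the 50 genes (66%), where the share over all genes was 30.7%. Replicate 2 had one in 26 of the 50 (52%), where the share over all genes was 26.9%. A summit in both replicates was found for 20 of the 50 genes, beside 2980 of all 19973 genes. All 8 bound genes had a summit in both replicates. This is usual for the thresholded list, where 607 of the other 612 nuclear peaks had a region within 200 bp in both. Of the 26 candidate genes, 12 had one in both replicates, 10 in replicate 1 alone and 3 in replicate 2 alone. The exception, rpl-9, had a summit in the combined list and in neither replicate list.

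**Figure D1:**
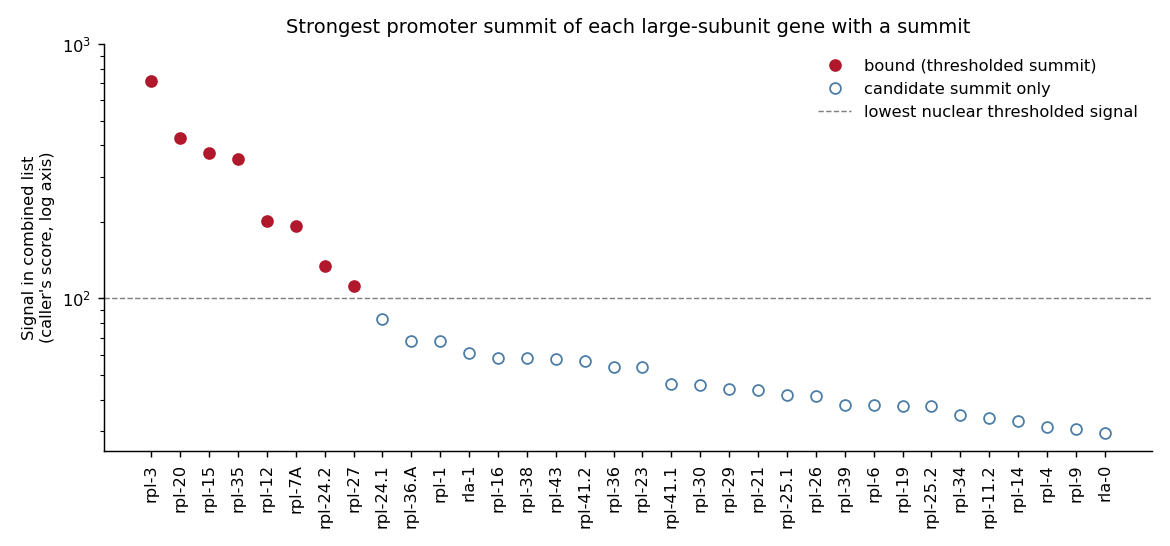
Signal of the strongest promoter summit in the combined candidate list (caller's score, log axis) for each of the 34 large-subunit genes with a summit. Filled points are the 8 bound genes, from 112.3 to 717.5, open points are the 26 candidate genes, from 29.53 to 83.2, and the dashed line is the lowest nuclear thresholded signal, 100.5.

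Among the proteins at the core of the subunit, rpl-3 encodes uL3, which reaches toward the catalytic centre. Its peak at chrIII:3867444-3867710 had a signal of 717.5 and ranked 1 of the 620 nuclear peaks. It ranked 3 in replicate 1, with a signal of 294.5, and 1 in replicate 2, with a signal of 419.4. The summit lay at -279 bp from the 5' end in the combined list, -279 bp in replicate 1 and -278 bp in replicate 2, so both replicates placed it at nearly the same base. The gene rpl-15 encodes eL15, a protein buried in the ribosomal RNA. Its peak at chrIV:654833-655030 had a signal of 371.3 and ranked 15. It ranked 26 in replicate 1 (signal 139.8) and 18 in replicate 2 (signal 224.5), with the summit at -341 bp, and at -352 and -354 bp in the replicates.

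The gene rpl-20 encodes eL20, which RefSeq lists as rpl-18A. Its peak at chrIV:4749967-4750188 had a signal of 426.5 and ranked 7. It ranked 8 in replicate 1 (signal 170.9) and 10 in replicate 2 (signal 244.5). The summit stood at -301 bp, with -290 and -310 bp in the replicates. The gene rpl-35 encodes uL29, a protein at the rim of the exit tunnel. Its peak at chrIII:7854583-7854797 had a signal of 352.4 and ranked 18, with ranks of 17 in replicate 1 (signal 149.7) and 20 in replicate 2 (signal 198.9). Its summit was the farthest upstream of the 8, at -450 bp, and stood at -450 and -443 bp in the replicates. Thus 4 of the 20 strongest nuclear peaks had their summits in large-subunit promoters, and the summits of those 20 peaks lay in the promoters of 11 protein-coding genes in all.

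The remaining bound genes had lower signals. The gene rpl-12 encodes uL11, at the base of the stalk where translation factors dock. Its peak at chrIV:13240637-13240741 was the narrowest of the 8, at 105 bp, and had a signal of 202.1 and rank 94. The replicate signals were 79.65 (rank 151) and 118.2 (rank 79), and the summit lay at -33 bp, with -2 bp in replicate 1 and -33 bp in replicate 2. The gene rpl-7A encodes eL8, of the L7Ae family of RNA-binding proteins. Its peak at chrIV:4390492-4390867 had a signal of 192.7 and rank 109. The replicate signals were 72.47 (rank 191) and 117.4 (rank 81), with the summit at -90 bp, and at -57 and -90 bp in the replicates. Both genes thus stood in the upper part of the thresholded list in the combined data and in each replicate.

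The weakest bound genes were rpl-24.2 and rpl-27. The yeast counterpart of rpl-24.2, Rlp24, is an assembly factor that holds the place later taken by eL24 and does not stay in the finished ribosome. Its peak at chrI:9669075-9669450 had a signal of 133.9 and rank 294, with the summit at -152 bp and at -155 bp in both replicates. The replicate signals were 42.02 (rank 1182) and 89.8 (rank 192). That summit also lay in an intron of C03D6.1, a gene on the opposite strand. The gene rpl-27 encodes eL27. Its peak at chrI:1834813-1835188 had a signal of 112.3 and rank 475, and the replicate signals were 39.76 (rank 1441) and 75.8 (rank 324). Its summit was the one summit of the 8 downstream of the 5' end, at 118 bp and in an exon of rpl-27 itself, with 91 and 114 bp in the replicates. Both peaks ranked far lower in replicate 1 than in replicate 2, and when only the 620 strongest nuclear regions of replicate 1 were used these 2 genes were no longer bound.

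**Figure D2:**
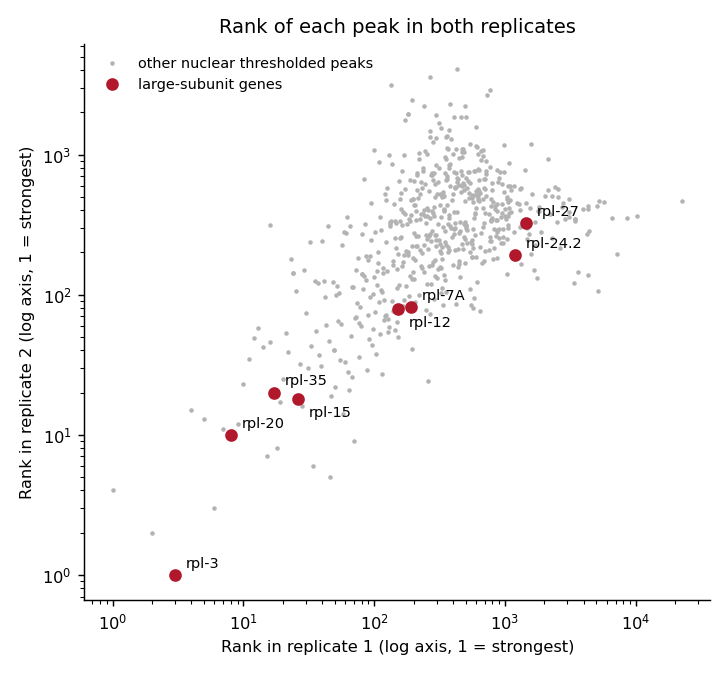
Rank of each nuclear thresholded peak in the candidate list of replicate 1 (horizontal, log axis, 1 is the strongest) and of replicate 2 (vertical, log axis). Grey points are 607 other peaks with a region in both lists and red points are the 8 large-subunit genes, of which rpl-3, rpl-20, rpl-35 and rpl-15 lie at ranks of 26 or better in both replicates.

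The median rank of the 8 peaks was 88.5 in replicate 1 and 49.5 in replicate 2. Over the other 607 peaks found in both lists it was 335 and 318. The rank was better in replicate 2 for 6 of the 8 (75%) and for 325 of the other 607 (53.5%). The median signal in the combined list was 277.2 for the 8 genes and 134.5 for all 291 bound protein-coding genes. Widths of the regions were 267 bp for rpl-3, 222 bp for rpl-20, 198 bp for rpl-15 and 215 bp for rpl-35. The regions of rpl-7A, rpl-24.2 and rpl-27 had the width of 376 bp that 546 of the 620 nuclear thresholded regions shared, with the summit near the middle.

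Relative to the 5' end, 7 of the 8 summits were upstream (87.5%), beside 268 of 291 bound genes (92.1%). Their median offset was -215.5 bp, and that of all bound genes was -284.0 bp. The summits of the 4 strongest genes lay between -450 and -279 bp, and the other 4 lay between -152 and 118 bp. The offsets of the 291 bound genes were not split by signal, so it is unknown whether this order is particular to the set. With 8 genes this is a description of order and no test was made. Among the 26 candidate genes, 22 had the strongest summit upstream (84.6%), with a median offset of -303.5 bp.

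**Figure D3:**
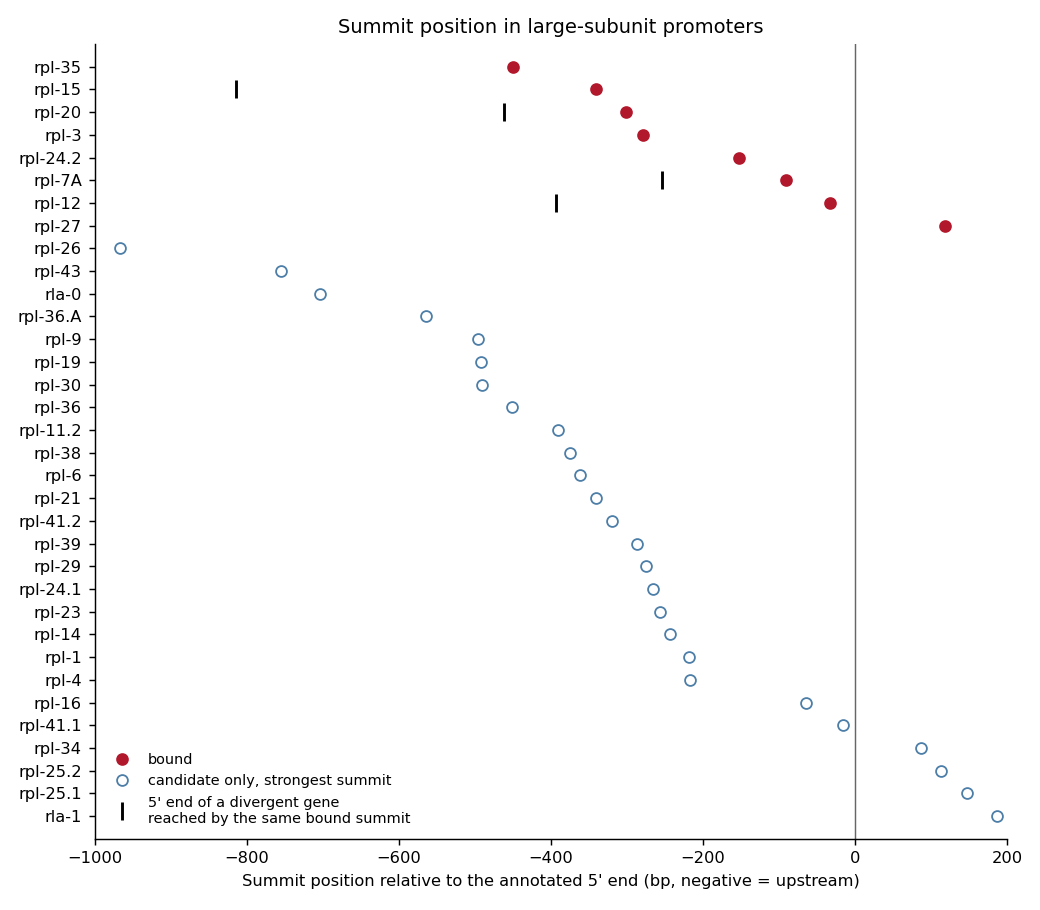
Position of the strongest promoter summit relative to the annotated 5' end (bp, negative is upstream) for the 8 bound genes (filled) and the 26 candidate genes (open). Black ticks mark the 5' end of a divergent neighbour whose promoter holds the same bound summit, and 7 of the 8 filled points lie left of 0.

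At the summits, the 8 windows reaching 50 bp to each side had a median GC content of 51.5%, between 43.6% for rpl-12 and 58.4% for rpl-3. The median was 48.5% over the other 612 nuclear peaks and 40.6% over 27806 other candidate regions. Words of 7 bases held by at least 4 of the 8 windows, on either strand, were looked for after these windows had been seen, so the counts in the 8 describe how the words were chosen. The word AAGTGTA stood in the windows of rpl-3, rpl-15, rpl-20 and rpl-35. It was in 7 of the 612 other peaks (1.14%) and in 1.27% of other candidates. The same 4 windows held AACACGC, which was in 13 of the 612 other peaks (2.12%) and in 0.687% of other candidates. A further word, ACACTCG, was held by rpl-3, rpl-15, rpl-20 and rpl-24.2, by 13 other peaks (2.12%) and by 0.597% of other candidates. The genes rpl-3, rpl-15 and rpl-20 held all 3 words and rpl-35 held 2 of them.

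Windows with at least 2 of the 3 words were found in 4 of the 8 genes, in 2 of the other 612 peaks (0.327%) and in 3 of 27806 other candidates (0.0108%). The 2 other peaks were in the promoter of cdc-48.1, a gene for an ATPase that extracts proteins from complexes, at rank 9, and in that of cox-5A, a gene for a subunit of cytochrome c oxidase, at rank 38. These are only 2 peaks. Outside the large-subunit genes, at least 1 word stood in 5 peaks at ranks 1 to 62 and in 5 at ranks 559 to 620. Each step of 62 ranks between them held from 0 to 4 such peaks. A link between the words and the rank of a peak was not tested. At least 1 of the words stood in 5 of the 8 windows (62.5%), 31 of the 612 other peaks (5.07%) and 708 other candidates (2.55%). No copy of a word was added in the 8 genes when the window was widened from 50 to 100 bp to each side. The words were chosen from within 50 bp of these summits, so this says nothing about where they tend to lie.

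**Figure D4:**
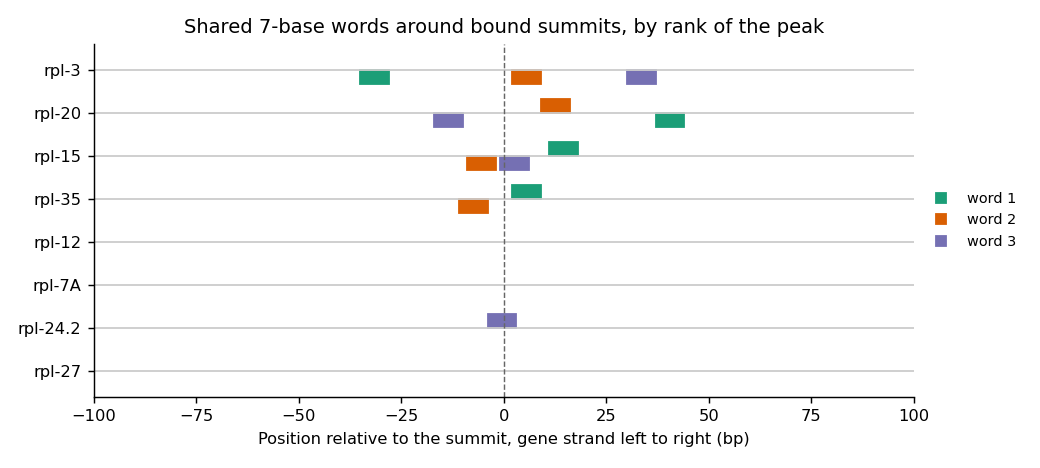
Positions of the 3 shared words from 100 bp before to 100 bp after each bound summit (bp, gene strand left to right), with genes ordered by rank of the peak. Boxes above a line are on the gene strand and boxes below it on the opposite strand, and all 12 copies start between -35 and 37 bp of a summit. The words were chosen from within 50 bp of these summits, so their nearness follows from that choice.

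The order and strand of the words differed between genes. In rpl-15 and rpl-35, AACACGC lay on the opposite strand, starting -9 and -11 bp from the summit. In these genes AAGTGTA followed on the gene strand, starting 11 and 2 bp after the summit. In rpl-20, ACACTCG started at -17 bp, AACACGC at 9 bp and AAGTGTA at 37 bp. In rpl-3 all 3 words were on the opposite strand, with AAGTGTA at -35 bp, AACACGC at 2 bp and ACACTCG at 30 bp. The copy in rpl-24.2 started at -4 bp. The windows of rpl-12, rpl-7A and rpl-27 held none of the 3.

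Runs of 10 bases or more were shared by 4 pairs of the genes whose sequences are printed here. They are the longest runs shared by pairs of these same windows, so their presence there describes how they were chosen. The windows of rpl-12 and rpl-20 shared 13 bases, AAGTGCGCTCCAC, in the same orientation. None of the other 612 peaks held this run, 7 other candidates did, and the nuclear genome held 89 matches on both strands. The windows of rpl-15 and rpl-35 shared 11 bases, GGAGCGTGTTT, which contain AACACGC read on the opposite strand. This run was in none of the 612 other peaks and in 5 other candidates, with 57 matches in the genome. The windows of rpl-3 and rpl-35 shared 10 bases that overlap it, AGCGTGTTTT, which stood in 2 of the other peaks, in 5 other candidates and at 255 places in the genome. The windows of rpl-15 and rpl-20 shared the 10 bases CGAGTGTATG, which contain ACACTCG read on the opposite strand. They were in none of the other peaks and in 3 other candidates, with 66 genome matches. The runs that hold or overlap a word given above are not separate from it. Of the words of 6 bases held by most of the 8 windows, GCGCAC was held by rpl-3, rpl-7A, rpl-12, rpl-20 and rpl-24.2 and by 50 of the 612 other peaks (8.17%). The word ACACGC was held by rpl-3, rpl-15, rpl-20, rpl-27 and rpl-35, and also by 50 other peaks. Both words were chosen because most of the 8 windows hold them, so these counts in the 8 describe that choice.

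Words of the tRNA gene's internal promoter were searched as well, since many peaks of the list lie near non-coding genes. GGTTCGA was in 0 of the 8 windows, which allows a share of up to 37.5%, and in 14.2% of the other 612 peaks. CGAACC was also in 0 of the 8 and in 16.2% of the other peaks, and GAACCC in 0 and 13.7%. CGAACC is part of GGTTCGA read on the opposite strand, so these absences are not separate results. Of all 620 nuclear peaks, 314 lay within 200 bp of a non-coding gene and none of these belonged to the 8. Shares among the other peaks away from such genes were not counted. TATAAA was in 0 of the 8 and in 7.35% of the other peaks. GAGAGA was in the window of rpl-24.2 alone and in 15.5% of the other peaks, and TTTTTT in those of rpl-24.2 and rpl-7A and in 18.6% of them. A match or its absence describes these letters only.

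The words were also counted over whole promoters of 1201 bp. At least 2 of the 3 words stood in the promoters of 4 of the 8 bound genes, 1 of the 26 candidate genes (rpl-21) and 0 of the 16 without a summit. The same was so in 489 of all 19973 promoters (2.45%). The words were chosen from windows inside the bound promoters, so the count in the bound genes was fixed by that choice. It cannot show a link between the words and binding. In the 42 unbound large-subunit promoters, AAGTGTA was present in 4 (9.52%), beside 16.9% of all promoters. AACACGC was present in 4 (9.52%), beside 7.38%. ACACTCG was present in 9 of the 42 (21.4%), beside 5.97% of all promoters, and 7 of these 9 were candidate genes.

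Another word, GGCCTAA, was picked by eye from the sequences of rpl-3, rpl-15 and rpl-7A above, all bound, and then counted in every promoter of the set. It stood in 18 of the 50 promoters (36%), on either strand, beside 6.15% of all promoters. It was held by 4 of the 8 bound genes (50%), by 6 of the 26 candidate genes (23.1%) and by 8 of the 16 without a summit (50%). The genes rpl-3, rpl-15 and rpl-7A hold it by the way it was picked. They are in the counts of the 50 and of the 8, so the bound share was largely fixed by that choice. On the gene strand GGCCTAA stood in 13 of the 50, these genes included, beside 3.34% of all promoters. Its median start there was -225.0 bp, between -363 and -24 bp. The differences between these shares were not tested.

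The peaks of the large-subunit genes were apart from annotated non-coding genes. A tRNA, snoRNA, snRNA or other non-coding gene, within 200 bp of the summit, was found for 0 of the 8 genes. It was found for 314 of the 620 nuclear peaks (50.6%) and for 115 of the 291 bound protein-coding genes (39.5%). A count of 0 of 8 allows a share of up to 37.5% by a rough limit that is not a test. At 500 bp such a gene was found for 1 of the 8, rpl-7A, whose snoRNA gene Y24D9A.9 lay 372 bp from the summit. With every peak near such a gene left out, all 8 were still bound, and the share over all genes was 0.891%.

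Large-subunit genes were frequent hosts of snoRNA genes. An annotated snoRNA gene lay in the body of 8 of the 50 (16%), beside 192 of all 19973 genes (0.961%), and these 8 held 12 such genes. The hosts were rpl-2, rpl-4, rpl-6, rpl-7, rpl-7A, rpl-15, rpl-24.1 and rpl-26. Of the hosts 2 were bound (25%), rpl-7A and rpl-15, and of the 42 others 6 were bound (14.3%). None of the 12 snoRNA genes had a thresholded summit within 200 bp, which allows a share of up to 25%, and 2 had a candidate summit there (16.7%). Of all 346 annotated snoRNA genes, 59 had a thresholded summit within 200 bp (17.1%). In rla-1, the gene of the stalk protein P1, the snoRNA genes Y37E3.21 and Y37E3.22 lay in the promoter outside the gene body.

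Several bound summits could be assigned to more than 1 gene. For 5 of the 8 (62.5%) the summit also lay in the promoter of another protein-coding gene, beside 117 of 291 bound genes (40.2%). The summit of rpl-12 lay -360 bp from the 5' end of lin-54, a gene of the DREAM complex that represses cell cycle and germ line genes. The summit of rpl-15 lay -473 bp from K11H12.8, and that of rpl-7A lay -164 bp from set-21, a gene of the SET domain family. The summit of rpl-20 lay -161 bp from Y17G9B.5, nearer than to rpl-20, and when each peak was given to its nearest 5' end alone rpl-20 was no longer bound. These 4 neighbours ran away from the large-subunit gene on the opposite strand. The summit in rpl-27 lay -660 bp from egl-30, the gene of a Gq alpha subunit, and -779 bp from C53H9.4, both on the same strand as rpl-27. In 7 of the 8 cases the large-subunit gene had the nearest protein-coding 5' end. A summit between divergent genes cannot be assigned to one of them from these lists.

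Divergent neighbours were common throughout the set. The nearest upstream gene, at any distance, was on the opposite strand for 32 of the 50 (64%), beside 45.4% of all genes. Of these 32, 5 were bound (15.6%), and of the other 18, 3 were bound (16.7%). Over all genes the shares were 1.89% and 1.1%. The upstream neighbour was itself a small-subunit gene for the candidate genes rpl-24.1 with rps-10 at 609 bp, rpl-36 with rps-14 at 662 bp and rpl-39 with rps-30 at 498 bp, and no thresholded summit lay in these large-subunit promoters.

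By chromosome, 4 of the 8 large-subunit genes on chromosome IV were bound (50%), beside 1.4% of all genes on it. Of the 17 on chromosome I 2 were bound (11.8%), and of the 9 on chromosome III 2 were bound (22.2%), beside 2.08% and 2.5% of all genes there. None of the 9 on II, the 5 on V and the 2 on X was bound, where the shares over all genes were 1.48%, 0.681% and 1.24%, so few or none would be bound at those shares.

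Within its gene body, rpl-3 had a further thresholded peak. It lay at chrIII:3869327-3869702 with the summit 1661 bp after the 5' end and 72 bp before the annotated 3' end, in the 3' UTR. Its signal was 141.7, rank 253, and it ranked 208 in replicate 1 (signal 71.41) and 221 in replicate 2 (signal 86.07). No non-coding gene lay within 200 bp. No other large-subunit gene had a thresholded summit in its body outside the promoter.

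The candidate genes had signals from 29.53 to 83.2 with a median of 43.8, all under the lowest nuclear thresholded signal of 100.5. Each bound gene had the same rank in the combined and thresholded lists, so this largely follows from how candidates were defined. Of the 26 candidates, 10 were below the combined list's median of 39.47. The highest candidate was rpl-24.1, the gene of eL24 itself, whose assembly paralogue rpl-24.2 was bound. It had a signal of 83.2 at -266 bp and rank 1068, with 27.44 (rank 5909) in replicate 1 and 58.54 (rank 652) in replicate 2. Its snoRNA gene is D1007.20, and its divergent neighbour is named above. Next was rpl-36.A, the gene of eL42, with 67.91 at -564 bp, at rank 2151. Its replicate signals were 33.07 (rank 2947) and 26.08 (rank 13279). The gene rpl-1 encodes uL1, of the stalk that guides spent tRNA out, and had 67.87 at -218 bp, at rank 2157. In replicate 2 it ranked 1234 with 48.5, while the strongest promoter summit of replicate 1 lay at -986 bp with 16.13. The gene rla-1 had 61.22 at 187 bp, at rank 3129, and 41.61 (rank 1227) at 146 bp in replicate 1. The strongest promoter summit of replicate 2 lay at -420 bp with 21.72 (rank 21575). The gene rpl-16 encodes uL13 and had 58.1 at -64 bp, at rank 3828, with 33.02 (rank 2965) at -99 bp in replicate 1 and 39.17 (rank 2939) at 81 bp in replicate 2. These 5 differed in which replicate ranked them higher.

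Of the stalk genes, rla-0 (uL10) was a candidate at 29.53, rla-1 a candidate at 61.22, and rla-2 (P2) had no summit. Paralogues were also compared. The genes rpl-11.1 and rpl-11.2 encode uL5, which sits in the central protuberance, and had no summit and a candidate at 33.86. The pair rpl-25.1 and rpl-25.2 (uL23) had candidates at 41.75 and 37.56, at 148 and 114 bp. The tandem pair rpl-41.1 and rpl-41.2 had candidates at 46.1 and 56.67, at -15 and -320 bp. No paralogue pair had both genes bound. The genes without a summit in the combined list were rla-2, rpl-2, rpl-5, rpl-7, rpl-10, rpl-11.1, rpl-13, rpl-17, rpl-18, rpl-22, rpl-28, rpl-31, rpl-32, rpl-33, rpl-37 and rpl-42. Of these 16, 3 had a summit in replicate 1 alone, 3 in replicate 2 alone and 10 in neither. A promoter without a summit was not detectable at an unknown depth, which is not the same as unbound.

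Other genes of the ribosome gave the setting. Of 31 small-subunit genes (rps-) 7 were bound (22.6%) and 16 were candidates (51.6%), with a median signal of 131.1 among the bound. The strongest was rps-1, with 264.3 at rank 43, so no rps- gene reached the signals of rpl-3, rpl-20, rpl-15 or rpl-35. Of 70 mitochondrial ribosomal protein genes 4 were bound (5.71%) and 32 were candidates. Of 23 ribosome biogenesis genes 1 was bound (4.35%), larp-1, and 14 were candidates. The gene ubq-2, which encodes ubiquitin fused to eL40 of the large subunit, and ubl-1, which encodes a fusion to a small-subunit protein, were both candidates. The differences between these shares were not tested. Neither the promoter of Y5F2A.4 nor that of unc-119, the genes carried by the transgene, held a thresholded summit.

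**Figure D5:**
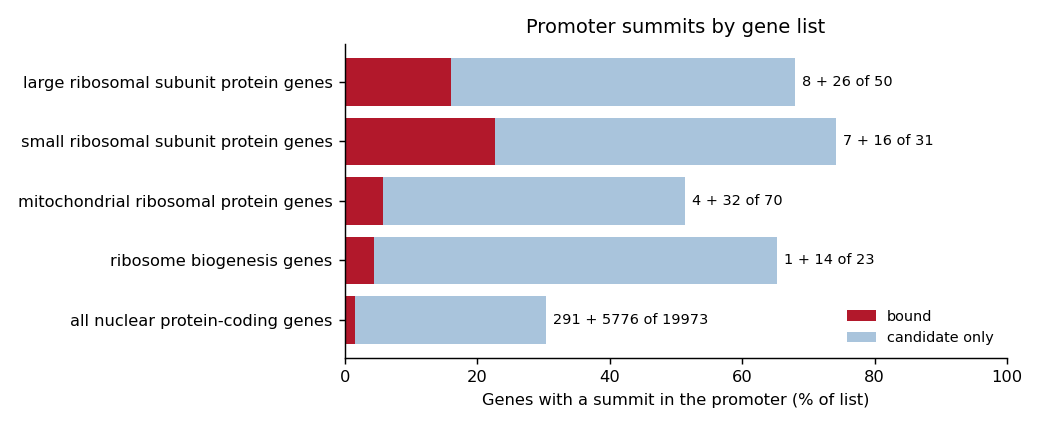
Share of genes (percent of each list) with a thresholded summit in the promoter (dark) or a candidate summit only (light), with the counts of both beside each bar. The large-subunit genes had 16% bound and 52% candidate, and all nuclear protein-coding genes had 1.46% and 28.9%.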

How the data were processed

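Chromatin immunoprecipitation followed by sequencing was done on whole L4 larvae of 2 biological replicates, with 3 libraries. Per the labels and the deposited notes, the assembly was ce11, candidate regions (peaks with background) were made from replicate 1, from replicate 2 and from both together, each against a control, and a thresholded list was derived from them with the irreproducible discovery rate. Both technical libraries of replicate 1 entered a single list and count as 1 replicate. The sources used here name no peak caller, aligner or version, and the control was not used here. The signal that the authors deposited for each region is a peak caller's score with no stated unit, by which regions were ordered only inside their own list. The deposited −log10 q value was 1.971 for every thresholded region and ranked nothing. Scores can shift with depth, mappability and copy number, and no read counts were used, so depth and its precision are unknown.

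Summits were set against Ensembl release 115 gene 5' ends on WBcel235, the assembly of ce11, and RefSeq gave products and sequence. All 620 nuclear thresholded regions had the same limits and signal in the combined list, and 0 nuclear regions ran past a chromosome end. Every bound gene is described with all values. The 5 candidates with the highest signal, genes with a thresholded summit in the body, snoRNA hosts and genes sharing a bound summit are named too. The gene set, lists and words were chosen with earlier results of these data known. Words were counted on both strands within 50 bp of each summit. Of the ribosome biogenesis genes written down, 23 of 29 were annotated. No test between groups was possible with 1 group. The share allowed beside a count of 0 is 3 divided by the number of genes. This rough limit treats the genes as independent draws, which members of a chosen family are not, and is not a test. Python 3.11.15, NumPy 2.4.6 and Matplotlib 3.10.9 were used, and the assignment of summits to promoters was tested on simulated data. Alternatives were other promoter limits, the stronger part of the list, region overlap, nearest gene only, any transcript's 5' end, removal of peaks near non-coding genes, and each replicate alone, for which the 620 strongest nuclear regions of its list were used.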

Additional observations from a re-analysis of the deposited data

How the results depend on the processing

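The count of 8 bound genes stayed 8 without replicate 1 (1.51% of all genes bound) and was 6 without replicate 2 (1.34%). The genes lost without replicate 2 were rpl-24.2 and rpl-27. The count was 7 for the stronger 310 peaks (0.806% of all genes bound), with rpl-27 lost. It was also 7 for promoters from 500 bp upstream to 100 bp downstream (1.04% of all genes), again with rpl-27 lost. With each peak given to its nearest 5' end it was 7 (1.14% of all genes), with rpl-20 lost. It was 8 under the other 4 settings. Of these, promoters from 2000 bp upstream to 500 bp downstream had 2.3% of all genes bound, and the others between 0.891% and 1.69%. The share over all genes thus moved more than the count in the set. With genes whose RefSeq product is a ribosomal protein, an alternative chosen after seeing the data, it was 7 of 48 (14.6%), and it stayed 8 with rpl-27A and rpl-37.1, which only RefSeq names. Candidate genes numbered 26, between 18 and 25 with a replicate left out, 20 with the shorter promoter and 35 with the longer one. The share of all genes that were candidates, 28.9% at the main setting, was not counted under these others. A longer promoter can reach more summits in any gene. The median summit offset was -215.5 bp. For the same 8 genes, the summits of replicate 2 alone had a median of -216.5 bp and those of replicate 1 alone -217.0 bp. These 8 include rpl-24.2 and rpl-27, which were no longer bound without replicate 2. The median was -279.0 bp with the shorter promoter, which drops rpl-27. The count of bound genes with a non-coding gene near the summit was 0 at 200 bp and 1 at 500 bp (rpl-7A). The read depth is unknown, so the smallest signal that could have been detected cannot be given.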

Other observations

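The genes that RefSeq alone names as large-subunit genes were read in the same way. The promoter of rpl-27A held 0 thresholded summits and 1 candidate summit with a signal of 43.6 at -969 bp, and that of rpl-37.1 held neither.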
